A study of Mus musculus with 87 samples.

Results

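The nuclear-encoded respiratory chain genes were followed in ventral midbrain nuclei after IFN-γ. The set held every gene of the plate table whose symbol marks it as a subunit or Ndufaf assembly factor of complexes I to IV or of the ATP synthase and which had 20 or more counts over all 84 wells. It comprised 84 of 48526 genes. In total 92 symbols matched, and 8 of these fell under the limit. Just outside were Cox6b2 with 14 counts and Cox4i2 with 13, and just inside were Cox7a1 with 25 counts and Ndufaf3 with 140. Pseudogenes, of which 6 matched, were left out. The 84 genes divided into 7 core subunits, 28 other subunits and 7 assembly factors of complex I, 4 subunits of complex II, 8 of complex III, 13 of complex IV (with Ndufa4) and 17 genes named for the ATP synthase. Of these 17, Atp5sl is named Dmac2 in a later annotation (Gencode vM21) and was placed here by its older symbol alone. The 84 genes lay on 19 chromosomes, 3 of them on X.

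Complexes I to IV pass electrons from NADH and succinate to oxygen and build a proton gradient across the inner mitochondrial membrane, and the ATP synthase uses that gradient to make ATP. A few subunits are encoded in mitochondrial DNA, and the rest are transcribed in the nucleus from genes scattered over the genome and must be made in matched amounts. Substantia nigra dopamine neurons are known for a high energy demand and for a sensitivity to complex I inhibitors.

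Adult C57BL/6J mice of both sexes, labelled wildtype, received IFN-γ or 0.9% saline in the ventral midbrain by stereotactic injection, and no transgene is given for them, although the breeding text attached to the samples describes a cross of DAT-IRES-Cre with floxed Ifngr1. Nuclei were sorted on NeuN, a neuronal nuclear antigen, and 3′ RNA was counted with molecular identifiers in wells of sorted nuclei at 6, 24, 48 and 72 h, with 6 IFN-γ wells per time and fraction and 4 saline wells (6 at 24 h). Separate nuclei from 1 saline and 2 IFN-γ mice were profiled singly at 48 h. The study drew each group's wells from fewer mice than wells, so some wells share a mouse, though which ones is not given in the sources used here. Values of n below count wells, and p-values over wells are therefore too small as tests over animals. The sample labels call all 84 wells NeuN+, and the fraction was taken from the study's own well list by barcode. In saline wells all 5 neuron markers tested were higher in the wells listed as NeuN+ and all 7 oligodendrocyte markers were lower.

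Wells held 277113 to 1684374 counts in NeuN+ and 20962 to 301445 in NeuN−, so that a typical respiratory chain gene had 1195.5 counts summed over the 42 NeuN+ wells and 115.5 over the 42 NeuN− wells (medians). Levels are given as CPM (counts scaled to the same well total), and they are compared between groups and not between genes. Unspliced and spliced RNA were counted together in the single nuclei, and the paper does not state whether this held for the wells. At 6 h the transcript of the Y-linked gene Eif2s3y reached 72.4 ± 8.35 CPM (SD, n = 4) in saline NeuN+ wells and 0.774 ± 0.751 (n = 6) in IFN-γ wells, and at 24 h Xist ranged from 21.0 to 1177 CPM in saline wells and from 30.1 to 74.9 in IFN-γ wells. Xist at 6 h was alike, at 1070 ± 67.5 CPM in saline and 1062 ± 141 in IFN-γ NeuN+ wells, so the saline wells held both transcripts. The Y-linked signal differed with treatment at 6 h, so the mix of sexes and treatment cannot be told apart there. Sex and treatment moved together in part at 24 h. There 2 of 6 saline wells per fraction had more Eif2s3y than Xist, as every IFN-γ well did. At 48 h NeuN+ wells held Xist at 936 ± 134 CPM in saline (n = 4) and 1027 ± 93.1 in IFN-γ (n = 6). Eif2s3y was at 5.57 ± 2.55 and 4.93 ± 1.90 CPM in the same wells. At 72 h Xist was at 29.3 ± 5.58 and 46.2 ± 12.5 CPM in NeuN+ wells, so the mix of sexes differed between these times. Time and the mix of sexes therefore cannot be told apart. At 72 h Eif2s3y was at 396 ± 31.9 CPM in saline and 369 ± 50.4 in IFN-γ NeuN+ wells, while in NeuN− wells Xist ranged from 39.6 to 1272 CPM in saline and from 50.1 to 281 in IFN-γ, and its part in the NeuN− and interaction results at 72 h was not tested.

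Promoters of respiratory chain genes are known to carry sites for NRF1 and for the ETS factor NRF2 (GABP), which tie the nuclear subunits to each other. RefSeq promoters (GRCm38.p6, 250 bases before the start to 50 after it) matched 73 of the 84 genes. The NRF1 motif GCGCANGCG was present on either strand in 28.8% of these 73, against 6.25% of all 32851 promoters, and the ETS motif CCGGAAG in 21.9% against 8.86%. The YY1 motif AAGATGGCG was found in 9.59% against 1.4%, and the ERR motif CAAGGTCA in 5.48% against 1.56%. The interferon GAS motif TTCNNNGAA was found in 6.85% of respiratory chain promoters and in 8.3% of all. Median GC content was 58.3% and 52.7%, respectively. The promoters of 4 genes are shown because their genes carry results below, with capitals for NRF1 and ETS matches. Cox7b (chrX:106015450-106015749, plus strand) had the lowest p among genes that fell at 72 h and held no match to the 5 motifs. Cox8a (chr19:7217567-7217866, minus strand) also fell at 72 h and held 2 ETS matches. Cox6a1 (chr5:115348909-115349208, minus strand) did not pass the test at 72 h and held both motifs. Ndufaf4 (chr4:24897833-24898132, plus strand) was called higher at 6 and 24 h, calls lost in 3 of 10 and 8 of 12 omissions of a well. The NRF1 motif is nearly its own reverse complement, so that GCGCATGCGC matches on both strands.
Cox7b: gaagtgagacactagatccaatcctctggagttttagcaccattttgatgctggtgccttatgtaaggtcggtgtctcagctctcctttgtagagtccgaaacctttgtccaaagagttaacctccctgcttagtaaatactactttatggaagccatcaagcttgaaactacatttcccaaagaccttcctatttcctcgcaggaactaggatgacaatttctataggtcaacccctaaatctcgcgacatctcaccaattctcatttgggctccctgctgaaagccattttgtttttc
Cox8a: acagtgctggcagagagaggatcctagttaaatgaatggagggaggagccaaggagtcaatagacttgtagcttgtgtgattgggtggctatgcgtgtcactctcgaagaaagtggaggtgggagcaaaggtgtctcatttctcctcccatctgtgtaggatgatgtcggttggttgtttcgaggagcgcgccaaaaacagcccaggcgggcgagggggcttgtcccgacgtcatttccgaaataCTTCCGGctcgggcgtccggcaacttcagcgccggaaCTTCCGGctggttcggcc
Cox6a1: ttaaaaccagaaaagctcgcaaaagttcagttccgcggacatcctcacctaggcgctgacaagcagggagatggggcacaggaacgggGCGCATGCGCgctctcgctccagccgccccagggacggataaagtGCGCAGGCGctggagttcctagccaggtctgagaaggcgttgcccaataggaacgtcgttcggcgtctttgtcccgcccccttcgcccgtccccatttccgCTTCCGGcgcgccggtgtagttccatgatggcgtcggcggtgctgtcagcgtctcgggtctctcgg
Ndufaf4: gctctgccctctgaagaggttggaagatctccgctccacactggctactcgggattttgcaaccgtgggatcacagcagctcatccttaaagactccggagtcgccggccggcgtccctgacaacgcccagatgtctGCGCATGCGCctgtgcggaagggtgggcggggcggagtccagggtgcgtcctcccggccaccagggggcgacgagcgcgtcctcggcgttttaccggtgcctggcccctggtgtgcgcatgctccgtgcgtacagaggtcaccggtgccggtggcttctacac

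The first question was whether IFN-γ changed these genes in neurons, and at which time. At 72 h in NeuN+ wells, 20 of the 74 respiratory chain genes tested were lower after IFN-γ and 0 were higher (edgeR quasi-likelihood test, Benjamini-Hochberg adjusted p below 0.05 over 9405 genes). Of all genes tested, 3.8% were called lower and 3.37% higher. The median log2 fold change was −0.40 for the respiratory chain genes and −0.00 for all genes, and 64 of the 74 were below 0. The 20 changes ran from −0.41 to −1.12 on the log2 scale with a median of −0.71. By the study's stricter rule (absolute log2 fold change above 1 and adjusted p below 0.01) 0 passed, against 0.766% of all genes. At an unadjusted p below 0.05 there were 38 of the 74, each with a lower level. DESeq2 called 9 of 80, each lower, at adjusted p below 0.05. Shares over all genes are not given for these counts, so nothing particular to the set is read from them.

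The sum of the 84 genes followed the same direction. It was 3188, 3204, 3349 and 3407 CPM in the 4 saline wells and had a lowest, median and highest value of 2508, 2694 and 2850 CPM in the 6 IFN-γ wells. The groups did not overlap, and the ratio of the means was 0.816 (3287 ± 108 CPM in saline, n = 4, against 2684 ± 141, n = 6, SD). In these sorted nuclei, fewer nuclei of a type with high levels and less RNA per nucleus cannot be told apart.

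**Figure D1:**
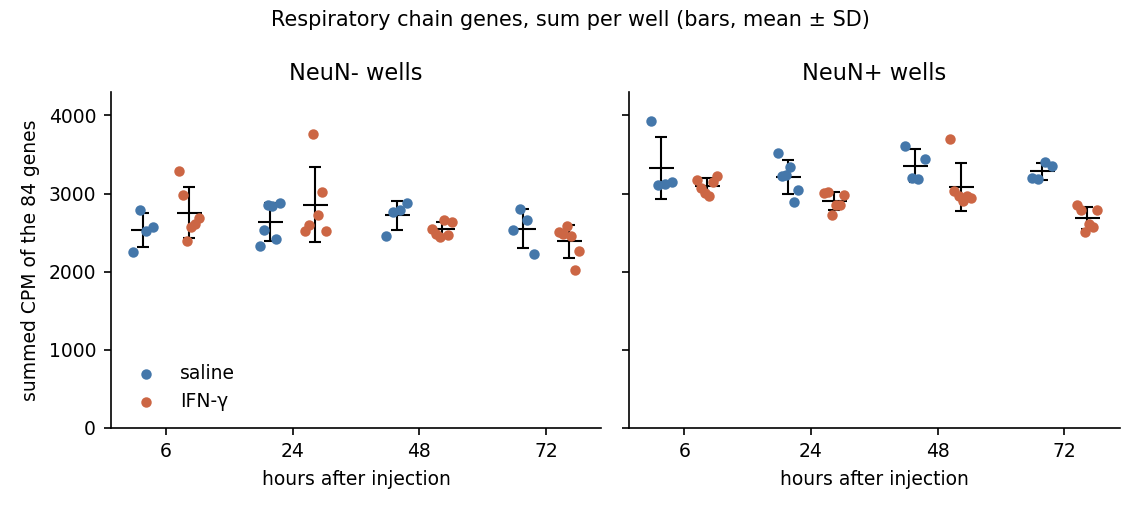
Summed CPM of the 84 respiratory chain genes in each well (points) against hours after injection, for NeuN− (left) and NeuN+ wells (right), with saline in blue, IFN-γ in red and bars for mean ± SD. The NeuN+ groups separate at 72 h, where saline wells lie at 3188 CPM or above and IFN-γ wells at 2850 or below, and the NeuN− groups overlap at every time.

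The called genes were mostly subunits of complex III, complex IV and the ATP synthase. Complex IV, cytochrome c oxidase, had 7 of 12 tested genes called lower (median log2 fold change −0.53), complex III 3 of 8 (−0.71) and the ATP synthase 6 of 16 (−0.36). Complex I had 1 of 5 core subunits (−0.11), 3 of 24 other subunits (−0.40) and 0 of 5 assembly factors (0.06) called, and complex II had 0 of 4 (0.00). The complex I assembly factors and complex II had 1 gene each at an unadjusted p below 0.05, and whether the complexes differed from each other was not tested. Summed levels are given as means over wells. Complex IV went from 644 to 441 CPM (ratio of means 0.684), complex III from 268 to 196 (0.733), the ATP synthase from 750 to 584 (0.778) and the other subunits of complex I from 783 to 643 (0.820), with no overlap of wells. The core subunits of complex I (327 and 304 CPM), complex II (191 and 182) and the assembly factors (324 and 334) overlapped between groups.

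**Figure D2:**
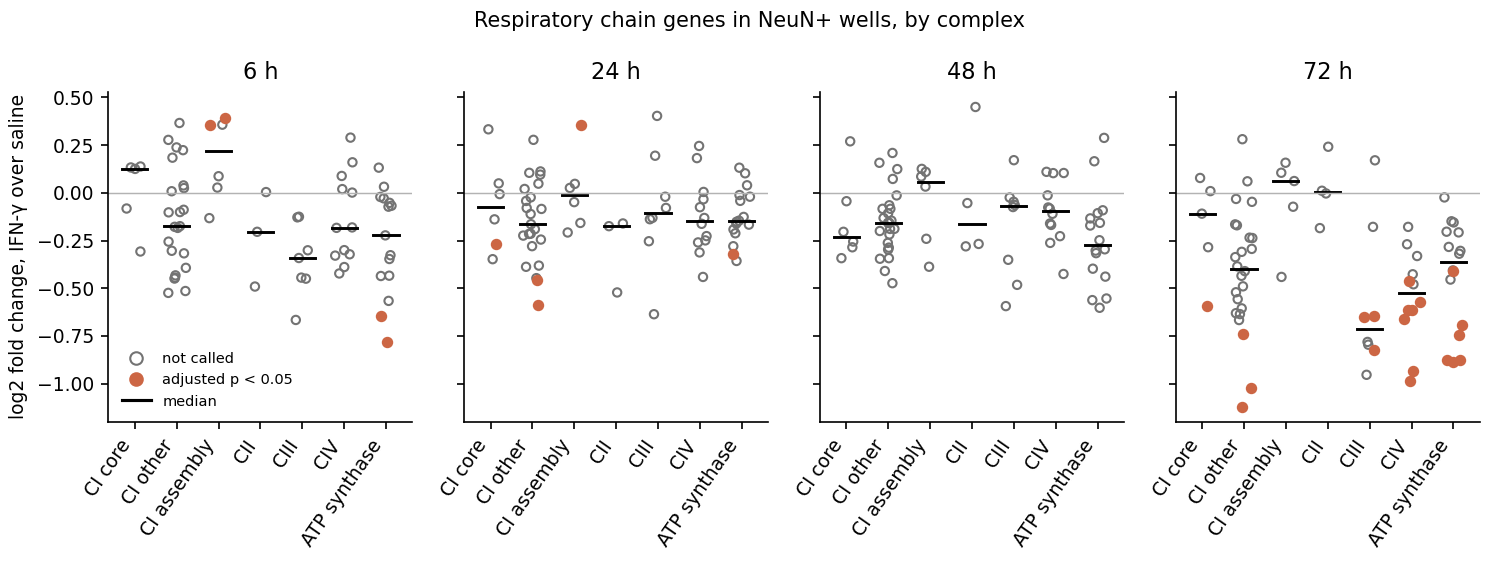
Log2 fold change of IFN-γ over saline in NeuN+ wells for each respiratory chain gene tested (points), by complex and by hours after injection, with filled points for adjusted p below 0.05 and bars for medians. At 72 h all 12 complex IV and all 16 ATP synthase genes tested lie below 0, and the medians of complex II and of the assembly factors lie at 0.00 and 0.06.

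Among complex IV genes, Cox7b (chrX:106015700-106022450, GRCm38), a small nuclear-encoded subunit, gave the lowest p. Its level was 127, 144, 147 and 162 CPM in saline wells and 81.7, 97.2 and 103 CPM (lowest, median, highest) in IFN-γ wells. The groups did not overlap, with a difference of −0.61 ± 0.087 on the log2 scale (± SE, edgeR adjusted p = 1.2e-05). Ndufa4 (chr6:11900292-11907497), first assigned to complex I and now counted with complex IV, was at 62.5, 65.1, 72.1 and 74.5 CPM in saline and at 17.2, 34.2 and 46.5 CPM in IFN-γ wells. Every IFN-γ well was below every saline well (log2 fold change −0.99 ± 0.15, adjusted p = 5.2e-05). Cox7a2 (chr9:79755361-79759878), the isoform of subunit VIIa of most tissues, was at 81.4, 86.4, 92.9 and 98.4 CPM in saline and at 48.7, 56.7 and 71.9 CPM in IFN-γ wells. It too showed no overlap (−0.66 ± 0.11, adjusted p = 9.9e-05). Cox6c (−0.46 ± 0.11), Cox7c (−0.57 ± 0.13), Cox8a (−0.61 ± 0.15) and Cox5b (−0.93 ± 0.27) were also lower, with adjusted p from 0.00532 to 0.0316. Cox6a1 (−0.33) and Cox7a2l (−0.27), which takes part in joining complexes III and IV, did not pass.

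The ATP synthase genes with the lowest p were Atp5j and Atp5j2, which encode subunits of the stalk and membrane portions. Atp5j (chr16:84827866-84835625) was at 49.9, 57.2, 70.6 and 71.7 CPM in saline and at 26.5, 32.7 and 41.7 CPM (lowest, median, highest) in IFN-γ wells, with no overlap (−0.88 ± 0.15, adjusted p = 0.00016). Its gene lies opposite Gabpa, and whether the counting used strand is not given in the sources used here. Atp5j2 (chr5:145183698-145192062) was at 38.8, 41.6, 43.7 and 69.8 CPM in saline and at 22.7, 23.9 and 33.7 CPM in IFN-γ wells. The highest saline well stood apart, and the other saline wells were also above every IFN-γ well (−0.88 ± 0.18, adjusted p = 0.00116). Atp5a1 and the catalytic subunit Atp5b did not pass the test. Atp5a1 had a log2 fold change of −0.02 and Atp5b, at 56.6 ± 3.98 CPM in saline (n = 4) and 46.9 ± 7.06 in IFN-γ wells (n = 6), of −0.30 (adjusted p = 0.138), and Atp5g3, encoding the membrane ring subunit c, was at −0.15.

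In complex III, Uqcrh (chr4:116066965-116075071), the hinge protein, was at 47.2, 56.4, 74.5 and 79.0 CPM in saline and at 33.4, 42.1 and 43.0 CPM in IFN-γ wells, without overlap (−0.65 ± 0.14, adjusted p = 0.00338). The Rieske iron-sulfur protein Uqcrfs1 (−0.80, adjusted p = 0.0620) and the core protein Uqcrc1 (0.17) did not pass. In complex I, the flavoprotein Ndufv1 was called at −0.60 ± 0.18 (adjusted p = 0.0450), with overlapping wells of 25.2 to 31.4 CPM in saline and 16.2 to 25.8 in IFN-γ. The large core subunit Ndufs1 was at 115, 132, 137 and 145 CPM in saline and 117, 142 and 151 CPM in IFN-γ wells, with a log2 fold change of 0.01 (adjusted p = 0.976). Of complex II, which also serves the tricarboxylic acid cycle, Sdha (−0.18, adjusted p = 0.194) and Sdhb (−0.00) did not pass. The other called genes, named after their values were seen, were Atp5k, Atp5g1, Atp5h, Atp5o, Uqcr10, Uqcrb, Ndufa1, Ndufa11 and Ndufc1, and the first gene outside the threshold was Uqcr11 (−0.95, adjusted p = 0.0527).

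The called genes were short. Their median length from start to end was 4.64 kb (range 1.205 to 12.361), against 10.863 kb for the 54 tested and not called. Among genes of up to 5 kb, 11 of 20 respiratory chain genes were called lower (median log2 fold change −0.65) and 16 of 221 other protein-coding genes (−0.22). Between 5 and 10 kb the counts were 8 of 24 (−0.42) and 14 of 511 (−0.04), and between 10 and 20 kb 1 of 16 (−0.22) and 19 of 1322 (−0.03). From 20 to 50 kb the counts were 0 of 11 (−0.17) and 40 of 2667 (0.00), and above 50 kb 0 of 3 and 181 of 3835. Promoter motifs were also counted. The ETS motif was present in 22.2% of the 18 called genes with a promoter and in 20% of the 45 tested and not called, and the NRF1 motif in 22.2% and 35.6%. Of the 20 called genes, 7 overlap another annotated gene.

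**Figure D3:**
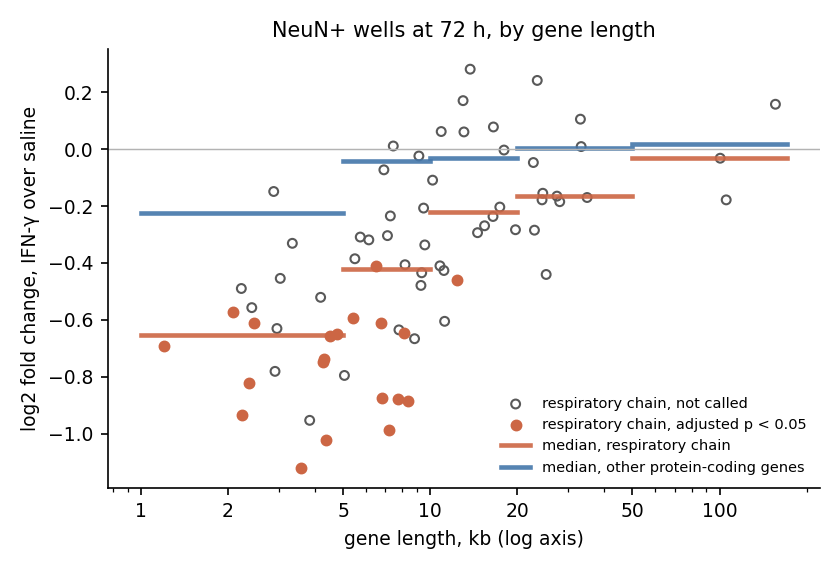
Log2 fold change of IFN-γ over saline in NeuN+ wells at 72 h against gene length in kb (log axis) for the respiratory chain genes tested (points, filled where adjusted p was below 0.05), with bars for the median of these genes (red) and of other protein-coding genes (blue) in each length range. Filled points lie between 1.205 and 12.361 kb, and in genes of up to 5 kb the medians are −0.65 and −0.22.

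Related lists were fixed for comparison. Cytosolic ribosomal protein genes, which are also short, had 23 of 62 called lower and 0 higher (median log2 fold change −0.67), among them Rpl26 (−1.38) and Rplp1 (−1.15), and their sum was 1663 ± 272 CPM in saline and 1041 ± 115 in IFN-γ wells without overlap. Subunits encoded in mitochondrial DNA had 0 of 3 called, with 1 at an unadjusted p below 0.05. Their RNA is not transcribed in the nucleus, so its level in sorted nuclei is not read as expression of these subunits. Of 21 other assembly factors 1 was lower (Ttc19, a complex III factor, −0.28), of 16 tricarboxylic acid cycle genes 1 was lower (Idh3a, −0.53, adjusted p = 0.00397), and of 15 glycolysis genes and 15 regulators of mitochondrial biogenesis 0 were called, with 5 and 1 at an unadjusted p below 0.05.

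Summed markers of cell types in the NeuN+ wells also differed at 72 h. The summed dopamine neuron markers were at 206 ± 43.8 CPM in saline and 501 ± 41.8 in IFN-γ wells, with 5 of 5 called higher (log2 fold change 1.66 for Slc6a3, the dopamine transporter, 1.11 for Ddc and 1.32 for Slc18a2). Summed VGLUT2 (glutamate) neuron markers were at 2146 ± 58.0 and 1500 ± 45.2 CPM, with 3 of 4 called lower, and oligodendrocyte markers at 382 ± 32.5 and 671 ± 38.6 CPM, with 5 of 6 higher. The sums did not overlap between groups in these 3 lists, while GABA neuron, microglia and neuron marker sums overlapped. The part of these shifts in the respiratory chain result was not tested. The count of 20 fell to 13 without saline well 3 and to 13 in a fit of all 42 NeuN+ wells, and after thinning to the depth of NeuN− wells 8 genes were tested and 0 called.

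At earlier times fewer genes passed in NeuN+ wells, though time and the mix of sexes cannot be told apart. At 6 h, 2 of 71 were higher and 2 lower, against 4.48% and 4.12% of all genes, with a median log2 fold change of −0.13. The higher genes were complex I assembly factors. Ndufaf4 was at 61.3, 64.5, 80.6 and 92.1 CPM in saline and at 94.3, 104 and 115 CPM (lowest, median, highest) in IFN-γ wells, without overlap (0.39 ± 0.11, adjusted p = 0.0225, edgeR). Ndufaf5 was at 46.9, 93.8, 94.7 and 95.6 CPM in saline and at 105, 115 and 137 CPM in IFN-γ wells, also without overlap (0.35 ± 0.11, adjusted p = 0.0357). The lower genes were Atp5g3 (32.2, 37.9, 48.1 and 65.0 CPM in saline, 20.6, 26.0 and 33.2 in IFN-γ wells, −0.78 ± 0.20, adjusted p = 0.0109), whose wells overlapped, and Atp5j (50.5, 51.6, 54.3 and 97.4 CPM in saline, 34.0, 37.1 and 46.2 in IFN-γ wells, −0.65 ± 0.17, adjusted p = 0.0150), whose wells did not. The 4 calls fell to 2 without IFN-γ well 1 or saline well 4 and to 1 without saline well 2. Ndufaf5 lost its call in 6 of 10 omissions of a well and Ndufaf4 in 3.

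At 24 h, 1 of 74 was higher and 4 were lower, against 6.23% and 5.3% of all genes, with a median of −0.14. Ndufaf4 was again higher, with a lowest, median and highest level of 60.0, 85.7 and 97.9 CPM in 6 saline wells and of 90.2, 100.3 and 114 CPM in 6 IFN-γ wells, which overlapped (0.36 ± 0.12, adjusted p = 0.0495, edgeR). Ndufa10 was at 58.4, 63.9 and 66.5 CPM in saline and 27.7, 43.5 and 59.8 in IFN-γ wells (−0.46 ± 0.13, adjusted p = 0.0162). Atp5c1, the central stalk subunit of the ATP synthase, was at 85.8, 98.4 and 112 CPM in saline and 59.0, 77.9 and 86.0 in IFN-γ wells (−0.32 ± 0.092, adjusted p = 0.0227). Ndufs1 was at 128, 143 and 173 CPM in saline and 109, 113 and 141 in IFN-γ wells (−0.27 ± 0.079, adjusted p = 0.0262), and Ndufv3 was at −0.59 ± 0.19 (adjusted p = 0.0417). Wells of both treatments overlapped in Ndufa10, Atp5c1 and Ndufs1. The 5 calls fell to 1 without IFN-γ well 3, to 2 without IFN-γ well 1 or 4 and to 3 without IFN-γ well 5 or 6 or saline well 4, and DESeq2 called 0. Ndufaf4 and Ndufv3 each lost the call in 8 of 12 omissions of a well, and Atp5c1 and Ndufs1 in 4. With the 2 saline wells that had more Eif2s3y than Xist as the only controls, a choice made after seeing the data, 3 genes were called higher, Ndufaf4 among them, and 0 lower.

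At 48 h edgeR called 0 of 77, against 0.867% of all genes, with 1 higher and 7 lower at an unadjusted p below 0.05 and a median of −0.16. DESeq2 also called 0. The summed CPM overlapped between treatments at each of these 3 times, with 3326 ± 398 in saline (n = 4) and 3099 ± 102 in IFN-γ (n = 6) at 6 h, 3209 ± 222 and 2907 ± 112 (n = 6 each) at 24 h, and 3357 ± 207 and 3084 ± 303 (n = 4 and 6) at 48 h. The highest well of the 6 h saline group, at 3923 CPM, was also the shallowest, with 277113 counts, and the highest of the 48 h IFN-γ group, at 3697 CPM, had 344073 counts. The 20 genes called at 72 h lay mostly below 0 at the earlier times, 16 of 19 tested at 6 h (median −0.18), 14 of 19 at 24 h (−0.13) and 16 of 20 at 48 h (−0.12). All tested genes of the set did much the same, with 47 of 71, 55 of 74 and 61 of 77 below 0 and the medians given above.

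NeuN− nuclei are mostly glia. Of the respiratory chain genes 9, 1, 3 and 7 passed edgeR's filter on low counts at 6, 24, 48 and 72 h, and edgeR called 0 at each time, with 1, 0, 0 and 3 at an unadjusted p below 0.05. Of all genes tested there, 33.1%, 41.3%, 6.21% and 3.98% were called. DESeq2, which tested 45, 70, 28 and 41 of them, also called 0 at each time. Summed CPM overlapped at every time, at 2534 in saline and 2753 in IFN-γ wells at 6 h, 2638 and 2857 at 24 h, 2720 and 2542 at 48 h and 2552 and 2388 at 72 h (means). The oligodendrocyte marker sum went from 7701 to 4547 CPM at 6 h and from 7843 to 2660 at 24 h in the same wells, and its part in these sums was not tested. These counts do not show that the genes were unaffected.

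Whether the response differed between fractions was tested with an interaction term. Of 35, 56, 40 and 55 respiratory chain genes, edgeR called 0, 0, 0 and 1, against 8.65%, 11.1%, 0.723% and 1.87% of all genes, with 3, 3, 3 and 8 at an unadjusted p below 0.05 (DESeq2 called 0, 0, 0 and 1). The gene was Cox7b at 72 h, with an interaction of −1.14 ± 0.29 on the log2 scale (adjusted p = 0.0257). In NeuN− wells Cox7b was at 64.9 ± 35.0 CPM in saline (n = 4) and 100 ± 24.4 in IFN-γ (n = 6), with overlapping wells. A single call among 55 is close to the share of all genes called. It was lost without NeuN− IFN-γ well 2 or 5 or NeuN− saline well 1 or 3, with values from −1.36 to −0.93 over all omissions, and with no filter on low counts. For the other 19 genes lower in NeuN+ wells at 72 h a difference between fractions was not shown.

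In saline wells alone, 9 of 25 tested genes were higher in NeuN+ than in NeuN− nuclei and 0 were lower, against 39.4% and 38.0% of all genes. Of 9 complex I genes tested 5 were called, among them the assembly factor Ndufaf5 at a log2 difference of 1.07 ± 0.13 (adjusted p = 1.46e-10, edgeR), Ndufs4 at 0.69 ± 0.085 and Ndufa10 at 0.61 ± 0.15. Cox7b (0.58 ± 0.15), Atp5o (0.75 ± 0.19), Ndufv2 (0.49 ± 0.13) and Ndufa4 (0.46 ± 0.18, adjusted p = 0.0157) were also higher. Genes could pass the filter on low counts through the deeper NeuN+ wells alone, so the count says little about the 84 genes, and it was 3 after thinning NeuN+ wells to the depth of NeuN− wells, 47 with no filter, 15 with time as a covariate and 30 in DESeq2 (27 higher, 3 lower). Subunits encoded in mitochondrial DNA, whose RNA is not transcribed in the nucleus, had 2 of 2 tested lower in NeuN+ wells (median −2.96). Ribosomal protein genes had 11 of 13 lower. These lists passed the same filter, so no contrast with the 84 genes is drawn.

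The single nuclei showed in which neurons and glia these genes were highest. Clusters were made without the respiratory chain, mitochondrial and ribosomal protein genes and named from markers. Of 4699 nuclei, 1241 were oligodendrocyte-like, 1096 VGLUT2-like, 743 GABA-like, 438 dopamine-like, 193 astrocyte-like and 134 microglia-like, and 854 stayed unnamed. The mice gave 1016 (saline), 2574 (IFN-γ 1) and 1109 (IFN-γ 2) nuclei with medians of 14645.5, 9404.5 and 11767 molecules (UMIs), and shared 0 barcodes. All 84 genes were detected, while Cox4i1, Ndufa13 and Cox8c, which the rule left out, had 0 UMIs in every class. Cox4i1 and Ndufa13 also had 0 counts in the wells. Each overlaps another protein-coding gene on the same strand, Gm20388 and Yjefn3. The part of this overlap was not tested, and the values of 0 do not show that these genes were silent.

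Dopamine-like nuclei had the lowest share of these transcripts. The summed level was 2495, 2560 and 3047 CPM in the saline, first and second IFN-γ mouse, against 3734, 3715 and 4700 in GABA-like and 3249, 3157 and 3831 in VGLUT2-like nuclei. In each mouse the order of the neuron classes was the same. Among glia, astrocyte-like nuclei were at 4251, 4527 and 5234 CPM, microglia-like at 3941, 3191 and 4399 and oligodendrocyte-like at 3793, 3511 and 3795, so that astrocyte-like nuclei were highest of these 3 classes in each mouse, while the order of the other glia changed between mice. Mean level was lowest in dopamine-like nuclei for 60 of the 84 genes among 6 classes and for 77 among the 3 neuron classes. It was highest in astrocyte-like nuclei for 29, in microglia-like for 24 and in oligodendrocyte-like for 18. Shares over all genes were not counted for these ranks, nor for the genes lower in every mouse given below. The second IFN-γ mouse was highest in every class, narrowly in oligodendrocyte-like nuclei, as it was for ribosomal protein transcripts.

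**Figure D4:**
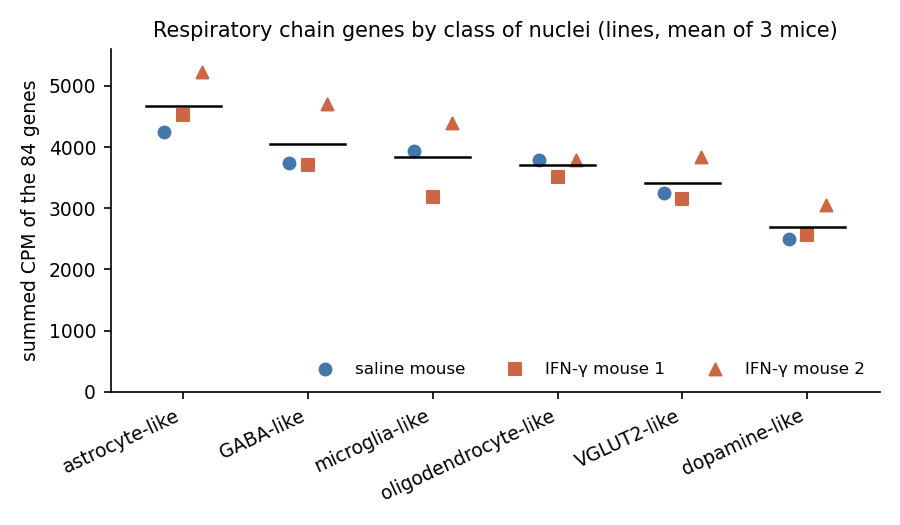
Summed CPM of the 84 respiratory chain genes in each class of nuclei, for the saline mouse (circle), IFN-γ mouse 1 (square) and IFN-γ mouse 2 (triangle), with lines for the mean of 3 mice. Dopamine-like nuclei lie lowest in every mouse, at 2495, 2560 and 3047 CPM.

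Gene by gene, 55 of 84 were lower and 2 higher in dopamine-like than in GABA-like nuclei (edgeR on UMIs summed per mouse and class, with mouse as a term), against 11.1% and 10.2% of all 21631 genes. The median log2 difference was −0.54 for these genes and −0.03 for all, and 72 of the 84 were lower in all 3 mice. Cox5a, a matrix-side subunit of complex IV, was at 41.8, 40.5 and 63.7 CPM in dopamine-like nuclei (saline, IFN-γ 1, IFN-γ 2) and at 100.1, 96.2 and 136 in GABA-like nuclei. Each mouse showed it lower (−1.09 ± 0.13, adjusted p = 2.55e-11). Cox7b (−0.86 ± 0.13, adjusted p = 1.38e-08), Ndufa4 (−0.84 ± 0.14), Atp5c1 (−0.78), Atp5sl (−0.84) and Cox7a2 (−0.91 ± 0.16) followed. The 2 higher genes were Atp5s (0.53, adjusted p = 0.0153), a factor named for the coupling of the ATP synthase, and Ndufv3 (0.45, adjusted p = 0.0458). The call of Atp5s was lost without IFN-γ mouse 2 or the saline mouse, and that of Ndufv3 without IFN-γ mouse 1, where its value was 0.20.

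Genes called lower were found in every complex. They were 13 of 17 ATP synthase, 8 of 13 complex IV, 6 of 8 complex III and 1 of 4 complex II genes. In complex I they were 5 of 7 core, 17 of 28 other and 5 of 7 assembly factor genes. The 1 call in complex II is too few to read. By length they were 15 of 25 genes of up to 5 kb, 20 of 29 from 5 to 10 kb and 10 of 16 from 10 to 20 kb. From 20 to 50 kb they were 8 of 11, and above that 2 of 3. Other protein-coding genes are not given by length for this comparison, so nothing is read from length. Ribosomal protein genes had 1 higher and 1 lower of 82. Tricarboxylic acid cycle genes had 10 of 16 lower, glycolysis genes 9 of 18, and subunits encoded in mitochondrial DNA 0 of 7. The summed level of these mitochondrial subunits was low. It was 4.25, 5.84 and 19.3 CPM in dopamine-like and 11.5, 8.76 and 17.1 in GABA-like nuclei (saline, IFN-γ 1, IFN-γ 2).

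Against VGLUT2-like nuclei, 27 genes were lower and 3 higher in dopamine-like nuclei, where 11.5% and 8.59% of all genes were called, with a median of −0.34 and with 64 of the 84 lower in all 3 mice. The assembly factor Ndufaf2 (−0.81, adjusted p = 1.27e-06), Cox5a (−0.67), Ndufa8 (−0.74), Ndufa4 (−0.58), Cox7b (−0.54) and Atp5j2 (−0.52) had the lowest p. Cox7b2, an isoform of Cox7b, was higher (1.15, adjusted p = 0.00324), as were Atp5s (0.51) and Ndufv3 (0.46). Cox7b2 was at 0.56 and lost its call without the saline mouse, Atp5s lost it without IFN-γ mouse 2 and Ndufv3 without IFN-γ mouse 1 (0.26). Of the 27 lower genes 26 were also among the 55. The 30 calls fell to 13 without the saline mouse, to 16 without IFN-γ mouse 1 and to 10 without IFN-γ mouse 2, and DESeq2 gave 19. Between GABA-like and VGLUT2-like nuclei, Cox5a (0.42, adjusted p = 0.0146) and Atp5sl (0.43, adjusted p = 0.0194) were higher in GABA-like nuclei, 2 of 84 against 1.35% of all genes, and the count was 1 without the saline mouse or without IFN-γ mouse 2.

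**Figure D5:**
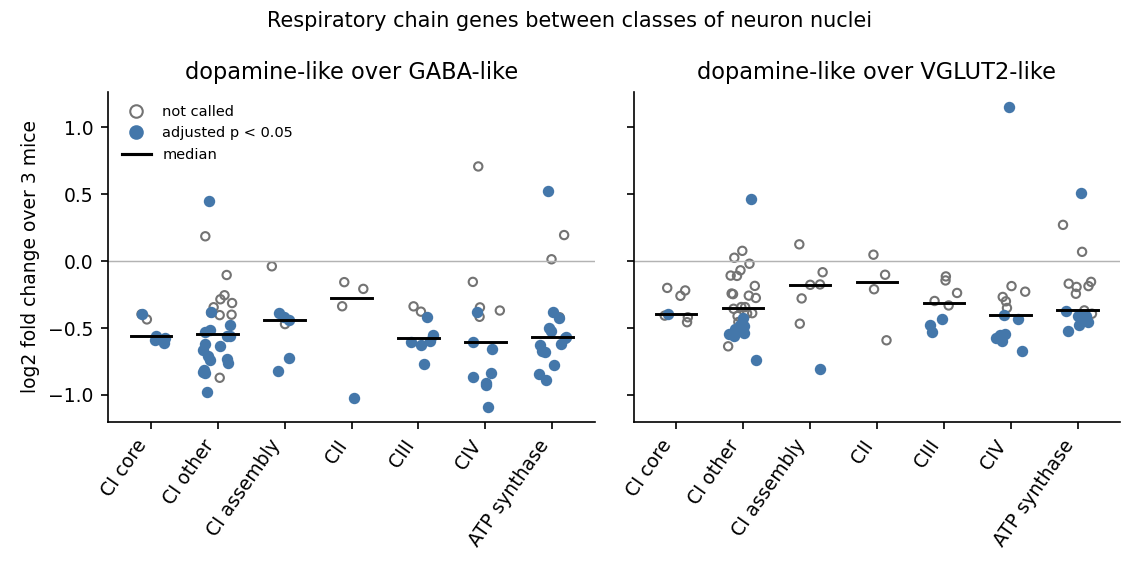
Log2 difference of dopamine-like nuclei from GABA-like (left) and VGLUT2-like nuclei (right) for each of the 84 genes (points), by complex, over 3 mice, with filled points for adjusted p below 0.05 and bars for medians. Medians lie below 0 in every complex, and 55 and 27 filled points lie below 0.

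The genes lower in IFN-γ wells at 72 h can be set beside these classes. Of the 20, 15 were lower in dopamine-like than in GABA-like nuclei (75% of the 20 and 27.3% of the 55), where 55 of all 84 were. Against VGLUT2-like nuclei it was 9 (45% of the 20 and 33.3% of the 27), where 27 of all 84 were. A value below 0 was found for 19 of the 20 in both comparisons, and for 78 and 75 of all 84, so nothing particular to the 20 genes is read from these counts.

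Glia differed from neurons in both directions. Against the mean of the 3 neuron classes, 36 genes were higher and 11 lower in oligodendrocyte-like nuclei (20.7% and 31.4% of all genes), 17 higher and 4 lower in astrocyte-like nuclei (12.3% and 20.4%), and 1 higher and 24 lower in microglia-like nuclei (14.9% and 23.1%). Median log2 differences were 0.33, 0.36 and −0.39, where the medians of all genes were −0.42, −0.60 and −1.0. The count lower in microglia-like nuclei was not far from the share of all genes and is not read as particular to these genes. Scaled to total counts, the summed CPM of microglia-like nuclei was above that of dopamine-like and VGLUT2-like nuclei in each mouse. Against GABA-like nuclei it was higher in the saline mouse only. The tests used TMM factors, and the part of the scaling was not tested. In oligodendrocyte-like nuclei Ndufb11 (1.38), Atp5e (1.39) and Ndufs7 (1.08) were higher and Atp5o (−1.52), Ndufaf5 (−1.21) and Ndufaf6 (−1.59) lower. In astrocyte-like nuclei Atp5b (0.73), Ndufb9 (0.89) and Atp5c1 (0.62) were higher. In microglia-like nuclei Uqcrb was higher (0.75, adjusted p = 0.0443), a call lost without either IFN-γ mouse (0.36 without the first), and Atp5o (−2.08), Ndufaf5 (−2.07) and Ndufa10 (−1.57) were lower. Of the 7 complex I assembly factors 4, 3 and 6 were lower in oligodendrocyte-like, astrocyte-like and microglia-like nuclei, and 0 were higher in any of them. The 3 astrocyte-like calls did not hold over omissions of a mouse, with Ndufaf7 lost in all 3, Ndufaf5 in 2 (to −0.34 without IFN-γ mouse 1) and Ndufaf2 in 1 (without IFN-γ mouse 2). The 21 astrocyte-like calls fell to 5 without IFN-γ mouse 1. Of the 4 oligodendrocyte-like clusters, 1 of 455 and 1 of 284 nuclei held 4 and 0 nuclei of the saline mouse, and the second of these was led by the IFN-induced genes Iigp1 and Tgtp2.

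Within classes, IFN-γ was compared with saline over 2 mice and 1, so that the lone saline mouse was assumed to vary like the IFN-γ mice and no p-value here measures the spread between saline mice. edgeR called 0 of 82 genes in oligodendrocyte-like, 0 of 80 in astrocyte-like, 0 of 83 in dopamine-like and 0 of 84 in GABA-like nuclei, with 3, 7, 13 and 12 at an unadjusted p below 0.05, and DESeq2 called 0 in each. Of all genes, 2.3%, 0.274%, 0.151% and 0.139% were called. In microglia-like nuclei Atp5o, encoding the subunit that joins both parts of the ATP synthase, was called lower (1 of 73, close to the 1.09% of all genes), at 345 CPM in the saline mouse and 56.2 and 64.6 in the IFN-γ mice (−2.51 ± 0.49, adjusted p = 0.00034). Its locus overlaps antisense genes and a second Atp5o entry, and DESeq2 did not call it, and the saline mouse gave 31 of the microglia-like nuclei. A microglia-like cluster of 22 nuclei held 0 from the saline mouse. In VGLUT2-like nuclei Ndufa4 was called higher (0.674% of all genes were), at 40.2 CPM in saline and 50.1 and 75.3 in IFN-γ (0.61 ± 0.17, adjusted p = 0.0371), and this call was lost under each of the other settings tried. The VGLUT2-like clusters were mixed unevenly over mice, such as 1 with 98 nuclei of IFN-γ mouse 1 and 5 of each other mouse, and 1 with 7, 32 and 47 nuclei of IFN-γ mouse 1, IFN-γ mouse 2 and the saline mouse.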

How the data were processed

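Plate RNA-seq of sorted NeuN− and NeuN+ nuclei and single-nucleus RNA-seq of ventral midbrain were used. The authors trimmed poly(A) tails and aligned reads to GRCm38 (Gencode vM10) with STAR (named in the submitters' processing notes too). They collapsed identifiers and deposited molecule counts per gene and well or nucleus. For the single nuclei the paper states that reads unique to a gene, introns included, were kept, and it does not state this for the wells. Low-quality nuclei and doublets were removed before deposit, and no further doublet call was made. All 84 plate columns matched a sample by barcode, treatment and time came from the sample labels, and the fraction from the study's well list. Gene coordinates and lengths are from Gencode vM21 (GRCm38).

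Counts were tested as deposited with edgeR 4.0.16 in R 4.3.3 (filterByExpr, TMM, quasi-likelihood F test, Benjamini-Hochberg over all genes tested, threshold 0.05), separately for each time and fraction. CPM used total counts. Counts at an unadjusted p below 0.05 and counts by DESeq2 are given without the share over all genes. They are not read as particular to the respiratory chain genes. Nuclei were clustered in Python 3.11.15 (leidenalg 0.10.2, scikit-learn 1.9.0, 2000 variable genes, 30 components, 15 neighbors, resolution 1), and clusters were named where a marker list led by a z of 0.75, a limit set in earlier work after the data were seen, with at least 3 markers. UMIs were summed per mouse and class, keeping genes of 10 or more. The class tests included mouse as a term. Depth ranged from 20962 to 1684374 counts per well.

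The scripts were tested on simulated data with planted 2-fold changes. At 72 h, 96.3% were recovered among 9183 genes for NeuN+ wells and 91.4% among 2744 for NeuN− wells. For the interaction at 72 h it was 39.4% among 6622. Dopamine-like against GABA-like nuclei gave 47.5% among 21228, and IFN-γ in microglia-like nuclei 0.552% among 7262. Simulated wells were independent, while real wells can share a mouse. These shares say nothing of changes smaller than 2-fold or of genes that did not pass the filter on low counts. Alternatives were RLE factors, DESeq2 1.42.0, no filter on low counts, saline wells of all times, 1 fit of all wells of a fraction, thinning to 110247.5 counts, other clustering resolutions (0.5 and 2) each well or mouse left out and, added after seeing the data, saline wells at 24 h with more Eif2s3y than Xist. Genes, lists and tests were chosen with earlier results of these data known. Named genes were the 6 called genes of lowest adjusted p per direction and comparison, a fixed set of 23 subunits and called genes of the other lists, and further names are marked where they occur.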

Additional observations from a re-analysis of the deposited data

Results flagged for a closer look

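In 44 groups of 4 to 6 wells, 7 had a highest or lowest well that stood apart from the others by Dixon's criterion, which chance alone gives in about 1 of 20 groups. The summed CPM of the respiratory chain genes in NeuN+ nuclei had a high well in saline at 6 h (3922.59, next 3143.26) and in IFN-γ at 48 h (3696.89, next 3032.41), and these were the shallow wells named above. At 72 h in NeuN+ wells, Atp5j2 had a high saline well at 69.825 CPM and a high IFN-γ well at 33.6545 CPM, and Uqcrh had a low IFN-γ well at 33.4301 CPM. At 6 h in NeuN+ saline wells, Atp5j had a high well at 97.4332 CPM and Ndufaf5 a low well at 46.9123 CPM. Cox7b was the gene whose response to IFN-γ differed between fractions at 72 h, by −1.14 on the log2 scale in the interaction test. This was 1 of 55 genes tested, close to the 1.87% of all genes called, and the call was lost in 4 of 20 omissions of a well and with no filter on low counts. The cause of these departures was not tested.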

How the results depend on the processing

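Counts of called respiratory chain genes stayed within 1.5 times the reported count in 100 of 124 settings. Of 943 settings of single named genes, 803 kept direction and side of the threshold, 137 lost the call, 2 gained it, and 1 turned direction, Ndufs1 at 24 h in thinned NeuN+ wells (0.0506). In NeuN+ wells at 72 h, DESeq2 gave 9, a fit of all wells 13, thinning 0 (8 genes tested), and leaving out a well 13 to 21 (13 without saline replicate 3). Cox7b, Ndufa4, Cox7a2, Atp5j, Atp5j2, Uqcrh, Cox6c, Cox7c and Cox8a were called in all 10 omissions, whereas Cox5b was lost in 4 and Ndufv1 in 9. At 6 h thinning gave 0 and omissions 1 to 4, and at 24 h DESeq2 and thinning gave 0, omissions 1 to 5, and the 2 saline wells with more Eif2s3y than Xist, chosen after seeing the data, 3 (higher). In NeuN− wells, saline wells of all times gave 1 call at 24 h, and omissions gave 0 to 1 at 72 h (1 without saline replicate 3). The interaction gave 0 with no filter at 72 h and 0 to 1 over omissions at 6 h (1 without NeuN+ saline replicate 2), 24 h (1 without NeuN− saline replicate 1) and 72 h. The comparison of fractions gave 30 (DESeq2), 15 (RLE), 15 (time as covariate), 19 (all 84 wells), 47 (no filter) and 3 (thinned). In nuclei, DESeq2 gave 0 for IFN-γ in microglia-like and VGLUT2-like nuclei, and RLE, no filter and resolutions 0.5 and 2 gave 0 in VGLUT2-like nuclei. Dopamine-like against VGLUT2-like nuclei gave 19 (DESeq2) and 10 to 16 over omissions, GABA-like against VGLUT2-like 5 (resolution 0.5), 4 (RLE) and 1 to 3, dopamine-like against GABA-like 38 to 48, and oligodendrocyte-like, astrocyte-like and microglia-like against neurons 36 to 49, 5 to 21 and 18 to 24. Omissions and thinning reduce the wells or counts tested, and for the other settings the cause was not tested. Wells can share a mouse, so leaving out a well does not leave out a mouse. No paired analysis was possible because the labels give the wells no replicate numbers.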
